A study of Mus musculus with 6 samples.

Results

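Hepcidin, the bone morphogenetic protein (BMP) signalling that controls it, and the proteins that move and store iron were followed in mouse liver through 10 genes, chosen by name: Hamp, Hamp2, Bmp6, Id1, Smad7, Tfrc, Trf, Fth1, Ftl1 and Slc40a1. All 10 were among the 24346 gene rows of the expression table. The livers came from male C57BL/6 mice (C57BL/6J in the study's methods), 8 weeks old at the start, that were fed a high-fat diet with defined amino acids and no choline (CDAHFD) for 6 weeks to induce nonalcoholic steatohepatitis (NASH). They were then injected once with an adeno-associated virus of serotype 8 and kept on normal diet for 2 weeks. In the 3 control livers the virus encoded LDTS-LIR mut, a lipid droplet-targeting sequence of perilipin 1 fused to a mutated LC3-interacting region of optineurin. In the 3 lipophagy livers it encoded LDTS-eLIR, in which the LC3-interacting region was engineered to recruit autophagosomes to lipid droplets. Both constructs carried mCherry and the droplet-targeting part, which by itself adds lipid to the liver, and both were driven by the hepatocyte promoter of thyroxine-binding globulin, so that other cells of the liver were not targeted. No liver without the virus and none on normal diet alone was analysed here, and the comparison is therefore between engineered and mutated LIR within recovering NASH livers.

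Hepcidin is a peptide hormone made by hepatocytes that binds ferroportin, the iron exporter, and causes its breakdown, so that less iron enters the blood. Sinusoidal endothelial cells release BMP6 when iron is plentiful, and BMP receptors on hepatocytes, helped by hemojuvelin, then activate SMAD proteins that induce the hepcidin gene together with Id1 and the inhibitory Smad7. Inflammation induces hepcidin separately, through interleukin-6 and STAT3. Ferritin, transferrin receptor and ferroportin are in turn controlled after transcription, by iron regulatory proteins that bind hairpins in their messenger RNAs, so their RNA levels are only a part of their control.

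Mice carry a pair of hepcidin genes in the same orientation on chromosome 7, Hamp (chr7:30942368-30944029) and Hamp2 (chr7:30922372-30924181, both GRCm38.p6, which is mm10). Hamp encodes the iron-regulating hormone. The 250 bases before the start of each are shown because they let the control regions of the hepcidin copies be compared letter by letter. Capitals mark the BMP-responsive letters of Hamp with the aligned letters of Hamp2, and the STAT site of each (RefSeq promoters, GRCm38.p6, both on the minus strand).
Hamp, chr7:30944030-30944279: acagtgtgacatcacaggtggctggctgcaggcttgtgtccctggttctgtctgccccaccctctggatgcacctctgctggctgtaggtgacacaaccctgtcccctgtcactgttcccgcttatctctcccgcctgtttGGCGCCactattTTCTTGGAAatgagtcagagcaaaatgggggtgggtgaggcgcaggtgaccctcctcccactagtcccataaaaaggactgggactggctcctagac
Hamp2, chr7:30924182-30924431: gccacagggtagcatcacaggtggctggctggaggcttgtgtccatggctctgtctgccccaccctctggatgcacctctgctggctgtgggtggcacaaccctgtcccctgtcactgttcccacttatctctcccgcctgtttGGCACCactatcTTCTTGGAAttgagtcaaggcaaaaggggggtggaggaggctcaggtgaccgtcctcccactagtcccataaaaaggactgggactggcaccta
Over 247 aligned bases 91.9% were identical, with 20 substitutions. One of them, G145A, counted from 1 at the 5′ end of the Hamp stretch and with the base of Hamp first, lies within the BMP-responsive letters GGCGCC. The 250 bases before each start were searched on both strands for GGCGCC and for TTCNNNGAA, the letters of a STAT site. GGCGCC occurred once near Hamp, with its first base at -109 from the start, and not near Hamp2, and it was found in 9.59% of 32851 mouse promoter windows of the same extent. Among the 10 genes it also occurred in a window of Tfrc, at -89, and not in the other window of that gene. Id1, Smad7, Trf and Slc40a1 were not searched. TTCNNNGAA occurred once in each, at -97 in Hamp and at -94 in Hamp2, and was found in 7.02% of all windows. A match of letters is a description and not evidence that a factor was bound in these livers.

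The values are FPKM, fragments scaled by transcript length and by the number of mapped fragments, computed by the authors for each liver. Steps of low FPKM values put the depth at an estimated 22700000 to 33900000 fragments per liver. Differences were tested as log2(FPKM + 1) with limma over 11493 genes averaging 0.5 FPKM or more, which left 9 of the 10 genes in the test and Bmp6 below it. With an adjusted p below 0.05, 0.0261% of tested genes were called. At an unadjusted p below 0.05 it was 19.5% of them, 11.5% higher and 7.97% lower in lipophagy livers, and in 26.2% the groups did not overlap, 15.4% with all lipophagy livers higher and 10.8% with all of them lower. Of the 9 genes tested here 0 were called (limma), 1 had an unadjusted p below 0.05 (Hamp2), and 2 did not overlap between groups (Hamp2 and Slc40a1), a share near that of all genes. The median log2 change was 0.089 over the 9 genes and 0.020 over all tested genes. The sign of the former was not settled: it turned to -0.093 with quantile normalization and to -0.038 without lipophagy liver 3, and it was 0.041 with quality weights, 0.046 without control liver 1, 0.14 without control liver 3 and 0.18 without lipophagy liver 2. The labels do not say how the livers relate to mice or litters, so p-values measure the spread between these samples.

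Hepcidin RNA from Hamp was abundant in both groups, whose livers overlapped, whereas Hamp2 was 2.54-fold higher by group means in the lipophagy livers, a difference that did not pass the adjustment. Hamp was at 1568, 1115 and 802 FPKM in control livers 1, 2 and 3, and at 1738, 667 and 1469 FPKM in lipophagy livers 1, 2 and 3. The groups overlapped, since lipophagy livers 1 and 3 lay near or above the highest control and lipophagy liver 2 was the lowest of all 6. The means were 1162 ± 385 FPKM (SD, n = 3) and 1291 ± 557 FPKM (SD, n = 3), a log2 change of 0.093 (SE, standard error, 0.37, 95% interval -0.75 to 0.94, adjusted p = 0.905, limma). The interval is wide enough to hold a fall or a rise of over 1.5-fold, so the data do not show that Hamp was equal in the groups. Its sign was not settled either: it was -0.093 with quantile normalization, -0.15 without control liver 3 and -0.18 without lipophagy liver 1.

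Hamp2 was at 38.3, 19.6 and 18.6 FPKM in the control livers and at 96.7, 39.2 and 58.7 FPKM in the lipophagy livers. All 3 lipophagy livers lay above all 3 control livers, with the nearest of them, control liver 1 and lipophagy liver 2, almost level. The means were 25.5 ± 11.1 FPKM (SD, n = 3) and 64.9 ± 29.2 FPKM (SD, n = 3), and the log2 change was 1.29 (SE 0.35, 95% interval 0.48 to 2.10, unadjusted p = 0.00628, adjusted p = 0.153, limma). Leaving out any single liver gave values between 0.96 and 1.61. Hamp2 RNA corresponded to an estimated 126 to 614 fragments per liver.

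Set against Hamp in the same liver, Hamp2 took a larger share in each lipophagy liver. Hamp2 was at 2.44%, 1.76% and 2.33% of the Hamp level in the control livers and at 5.56%, 5.88% and 3.99% in the lipophagy livers. The groups were separated by a gap, and the ratio was 2.36-fold higher by group means, the exact permutation test giving p = 0.1 (two-sided, the smallest possible with 3 livers against 3). It remained 2.16 to 2.63-fold higher with any liver left out, an analysis chosen after seeing the data, as was the ratio itself. The sum of both genes followed Hamp, at 1187 ± 396 FPKM (SD, n = 3) in control and 1356 ± 583 FPKM (SD, n = 3) in lipophagy livers. The transcripts of Hamp and Hamp2 were 94.6% identical over 410 aligned bases, with a longest identical run of 87 bases, so that 0 of the windows of 100 bases, the read length, were the same in both. Reads with a sequencing error could still have been given to the wrong copy, and whether this moved the Hamp2 values was not tested.

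**Figure D1:**
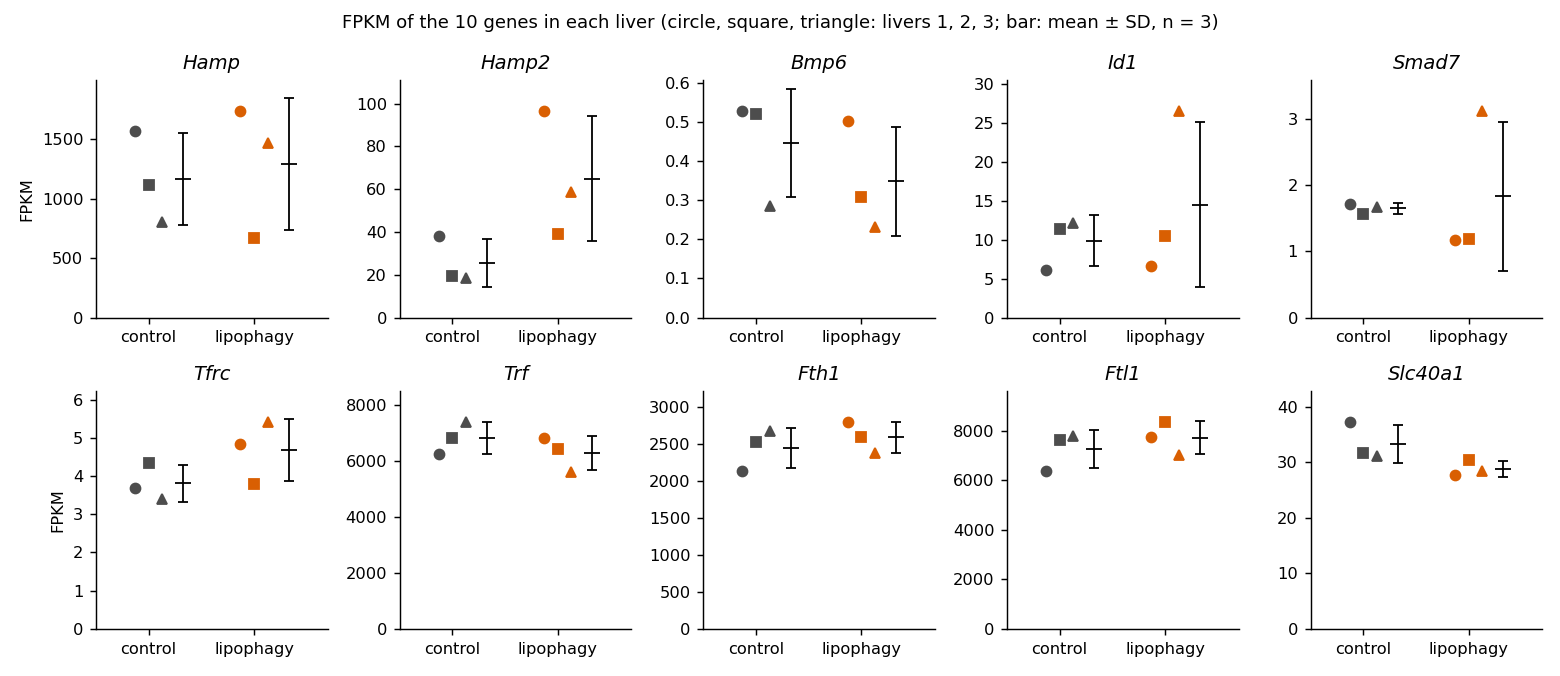
FPKM of the 10 genes in each liver, on axes that start at 0, with controls in grey and lipophagy livers in orange, livers 1, 2 and 3 as circle, square and triangle, and the mean ± SD (n = 3) beside them. Hamp2 is higher and Slc40a1 lower in all 3 lipophagy livers, Id1 and Smad7 are highest in lipophagy liver 3, and the other genes overlap.

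**Figure D2:**
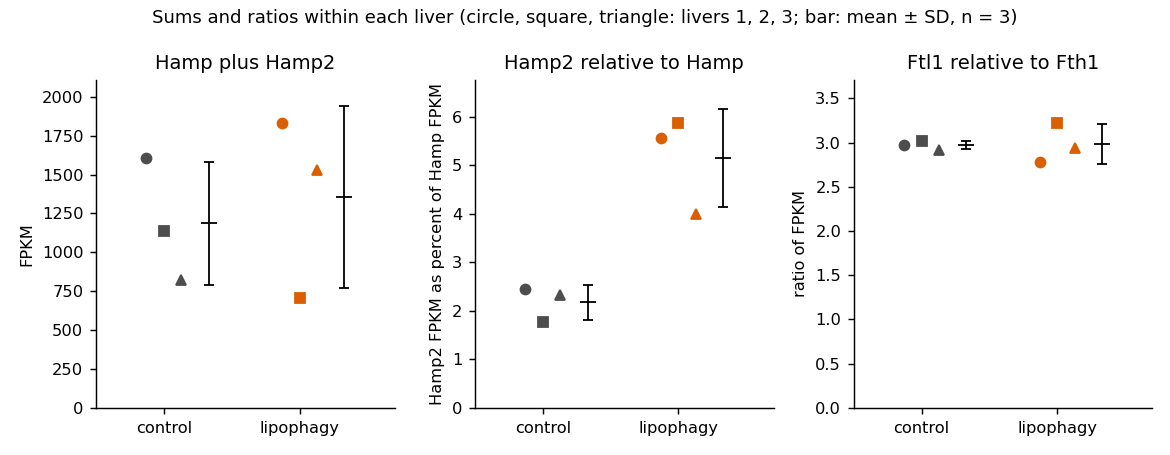
The FPKM sum of Hamp and Hamp2, Hamp2 FPKM as a percentage of Hamp FPKM, and the FPKM ratio of Ftl1 to Fth1 in each liver, with the mean ± SD (n = 3). Hamp2 lies between 1.76% and 2.44% of Hamp in control livers and between 3.99% and 5.88% in lipophagy livers, whereas the sum and the ferritin ratio overlap.

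Among the other inputs of the hepcidin gene, 9 genes with Hamp and Hamp2 included, 7 were higher and 2 lower, 0 were called, and the median log2 change was 0.097, which turned to -0.057 with quantile normalization. Il6ra, the interleukin-6 receptor, was at 2.09, 2.31 and 2.71 FPKM in control livers and at 2.91, 4.31 and 6.12 FPKM in lipophagy livers. All lipophagy livers were above the controls for Il6ra, although its log2 change of 0.65 did not pass the adjustment (SE 0.20, adjusted p = 0.170, limma). Stat3, which carries the interleukin-6 signal to the hepcidin gene, differed by -0.13 on the log2 scale (adjusted p = 0.533, limma), and Il6st, the shared signalling receptor, was lowest in the list at -0.16. The 3 tested genes with values most like those of Hamp over the 6 livers were Vipr1, Slco1a4 and Colec10. Their centred log2 values lay a root mean square distance of 0.15, 0.20 and 0.24 from those of Hamp, which itself had an SD of 0.56 over the livers.

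BMP6, the ligand that reports iron stores to hepatocytes, was the lowest of the 10 genes and below the filter. Bmp6 was at 0.528, 0.520 and 0.286 FPKM in control livers and at 0.502, 0.309 and 0.232 FPKM in lipophagy livers, an estimated 20 to 48 fragments each. The groups overlapped, with means of 0.445 ± 0.138 FPKM (SD, n = 3) and 0.347 ± 0.139 FPKM (SD, n = 3) and an exact permutation p = 0.4 (two-sided). With a filter of 0.1 FPKM, which lets Bmp6 into the test, its log2 change was -0.10 (SE 0.099, adjusted p = 0.603, limma). The size of this difference was not settled, at -0.18 when control liver 3 or lipophagy liver 1 was left out, -0.058 and -0.062 when control liver 1 or 2 was, -0.039 when lipophagy liver 3 was, -0.29 with a pseudocount of 0.1, -0.16 with one of 0.5 and -0.034 with quantile normalization. The 12 listed markers of sinusoidal endothelial cells, its source, were all tested, 9 of them higher and 3 lower, with 0 called, and none of them at 0. Their summed level was 43.2 to 53.6 FPKM in control livers and 48.2 to 73.6 FPKM in lipophagy livers, and its part in the Bmp6 values was not tested. In bulk tissue fewer cells of a type and less RNA per cell cannot be told apart.

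Other BMP ligands and inhibitors showed no called difference in either direction. Of 15 listed genes, Bmp6 included, 7 passed the filter, of which 2 were higher and 5 lower, with a median log2 change of -0.12 and 0 called. The median was -0.030 without control liver 1, -0.033 without lipophagy liver 2, -0.071 without lipophagy liver 3, -0.040 with quantile normalization, -0.054 with no filter, -0.075 with a filter of 1 FPKM and -0.18 with a pseudocount of 0.1. Gdf2, which encodes BMP9, was the most abundant ligand, at 7.61, 7.63 and 5.87 FPKM in control and 8.08, 5.67 and 6.86 FPKM in lipophagy livers, and its groups overlapped. Bmp2, the other endothelial ligand of the hepcidin pathway, had a log2 change of 0.18 (SE 0.14, adjusted p = 0.495, limma). Fst, the activin inhibitor follistatin, was lowest in the list (-0.41), with overlapping livers. Fam132b, the table's name for erythroferrone, which lowers hepcidin when red cell production is high, was at 0.106 FPKM or less in every liver.

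Of 15 receptors, sensing proteins and SMADs, all tested, 5 were higher and 10 lower, 0 were called, and the median was -0.093. Tmprss6, the protease that cleaves hemojuvelin and so dampens hepcidin, was highest. It was at 126, 133 and 124 FPKM in control livers and at 165, 159 and 136 FPKM in lipophagy livers. The lipophagy livers lay above the controls, with a log2 change of 0.26 (SE 0.095, adjusted p = 0.212, limma). Acvr1, the type I receptor that BMP6 uses, was lowest, with livers that overlapped (-0.34, SE 0.14, adjusted p = 0.249, limma). Acvrl1, Bmpr1a and Neo1 were lower in all 3 lipophagy livers and Smad4 was higher in all 3, together with Tmprss6 5 of 15 genes that did not overlap, beside 26.2% of all tested genes. The iron sensors had small differences and overlapping livers. Tfr2 had a log2 change of 0.0020 (SE 0.071, adjusted p = 0.990, limma), Hfe of 0.019 (SE 0.091, adjusted p = 0.925, limma) and Hfe2, which encodes hemojuvelin, of -0.093 (SE 0.13, adjusted p = 0.703, limma).

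None of the tested BMP targets was called (limma), and the higher mean of Id1 rested on a single liver. Id1, an inhibitor of helix-loop-helix transcription factors, was at 6.17, 11.3 and 12.2 FPKM in control livers and at 6.58, 10.4 and 26.6 FPKM in lipophagy livers. Only lipophagy liver 3 lay above the control range. The log2 change of 0.34 (SE 0.44, 95% interval -0.67 to 1.36, adjusted p = 0.684, limma) became -0.18 without that liver. Smad7, which blocks the BMP receptors in a feedback loop, was also highest in lipophagy liver 3, at 1.72, 1.56 and 1.67 FPKM in control livers and at 1.18, 1.19 and 3.12 FPKM in lipophagy livers. Lipophagy livers 1 and 2 were below every control and lipophagy liver 3 far above. Its log2 change was 0.028 (SE 0.23, 95% interval -0.50 to 0.55, adjusted p = 0.957, limma) with all livers and -0.28 without lipophagy liver 3 (adjusted p = 0.163, limma).

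Of 9 BMP targets 8 were tested, 4 higher and 4 lower, with 0 called and a median log2 change of -0.057, which became -0.17 without lipophagy liver 3 and turned to 0.024 both with quantile normalization and without lipophagy liver 1. Id3 was lowest, at 66.1, 84.5 and 72.6 FPKM in control livers and at 51.8, 54.0 and 72.0 FPKM in lipophagy livers. Lipophagy liver 3 reached the range of the controls for this gene and the others did not (log2 change -0.33, SE 0.14, adjusted p = 0.255, limma). Atoh8, a SMAD-induced activator of hepcidin, differed by 0.19 on the log2 scale (adjusted p = 0.394, limma) and Smad6, the other inhibitory SMAD, of -0.14 (adjusted p = 0.415, limma). The 3 genes with values most like those of Id1 were Usp2, Fkbp5 and Epha2, at root mean square distances of 0.22, 0.23 and 0.23 from Id1, whose SD over the livers was 0.70. All 3 were highest in lipophagy liver 3, where Usp2 was at 17.3 FPKM against 2.54 to 4.58 FPKM in the other livers and Fkbp5, an early target of the glucocorticoid receptor, at 16.5 FPKM against 3.65 to 6.31 FPKM. The part of this shared pattern in the Id1 and Smad7 values was not tested.

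**Figure D3:**
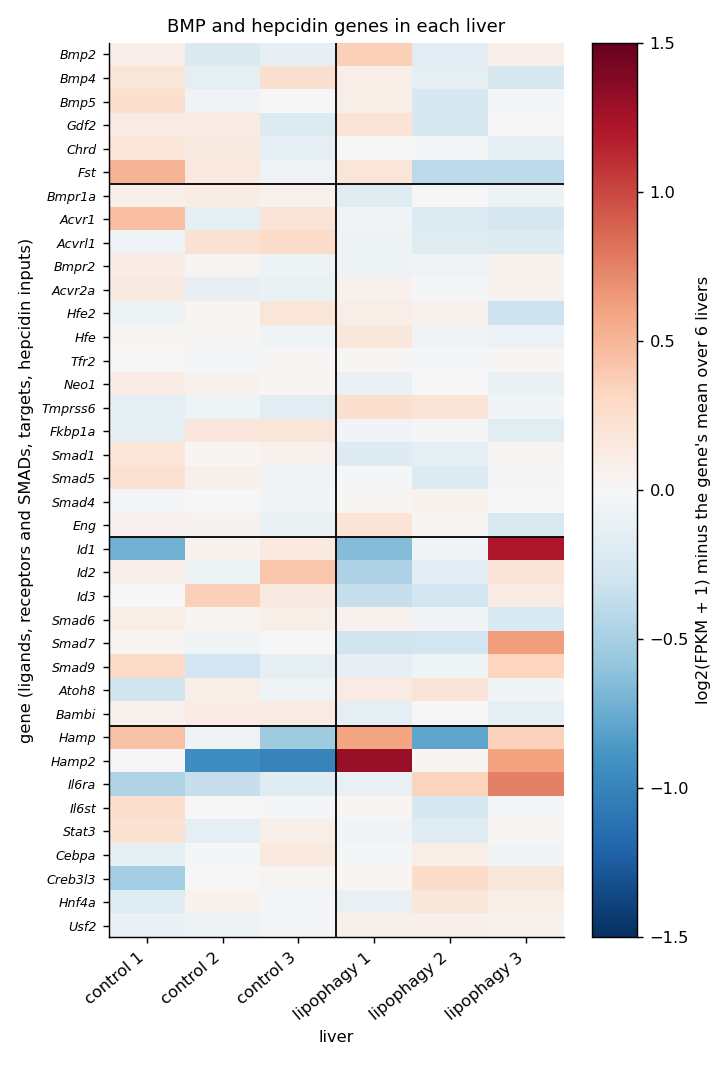
Deviation of log2(FPKM + 1) from each gene's mean over the 6 livers (colour) for the tested and reported BMP ligands and inhibitors, receptors and SMADs, BMP targets, and hepcidin with its inputs (rows, divided by lines) in each liver (columns). Id1 and Smad7 stand out in lipophagy liver 3 and Hamp2 in lipophagy livers 1 and 3, while Tfr2 and Hfe are pale across all livers.

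All of the 10 genes but Smad7 were searched for an iron-responsive element, the hairpin to which iron regulatory proteins bind. Fth1, Ftl1, Slc40a1 and Tfrc held its letters in their transcripts. These letters are shown because they set apart the genes whose RNA level is only part of their control. Capitals mark the CAGTGN loop, and each stretch comes from the GENCODE transcript on GRCm38 and lies in a UTR within 1 exon.
Fth1 5′ UTR, chr19:9982733-9982759, plus strand: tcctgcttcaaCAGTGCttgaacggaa
Ftl1 5′ UTR, chr7:45459780-45459806, minus strand: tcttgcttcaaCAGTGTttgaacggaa
Slc40a1 5′ UTR, chr1:45925466-45925492, minus strand: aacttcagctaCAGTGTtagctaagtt
Tfrc 3′ UTR, chr16:32631220-32631246, plus strand: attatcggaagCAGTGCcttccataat
In the ferritin genes and ferroportin the hairpin lies before the coding part, where bound protein blocks translation, and in Tfrc, in which 4 such matches were found, it lies after the coding part, where bound protein protects the RNA from decay. The search was for a C, 5 bases, CAGTG, a base other than G, and 5 bases that pair with the first 5, on the transcript strand. It matched in 0.932% of 21877 coding genes. A match is a description and not proof of binding.

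Transferrin receptor 1, encoded by Tfrc and the entry point for transferrin iron, was at 3.69, 4.33 and 3.39 FPKM in control livers and at 4.84, 3.79 and 5.41 FPKM in lipophagy livers. Lipophagy livers 1 and 3 were above all controls and lipophagy liver 2 was among them. The means were 3.81 ± 0.481 FPKM (SD, n = 3) and 4.68 ± 0.821 FPKM (SD, n = 3), a log2 change of 0.24 (SE 0.13, 95% interval -0.054 to 0.53, adjusted p = 0.331, limma), and 0.14 without lipophagy liver 3. Trf, which encodes transferrin, the iron carrier of plasma, was at 6229, 6796 and 7377 FPKM in control livers and at 6799, 6420 and 5599 FPKM in lipophagy livers. These overlapped, with a log2 change of -0.12 (SE 0.12, adjusted p = 0.615, limma), which was -0.038 without lipophagy liver 3, -0.057 without control liver 3 and -0.24 with quantile normalization. Of the 100-base windows of the Trf transcript 77.3% also occur in an annotated overlapping gene, Gm20425, so the share of reads given to Trf depends on the annotation used.

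Ferritin RNA was high, with overlapping groups for both chains. Fth1, the heavy chain with the iron-oxidizing activity, was at 2142, 2523 and 2674 FPKM in control livers and at 2797, 2589 and 2386 FPKM in lipophagy livers. Ftl1, the light chain, was at 6372, 7617 and 7810 FPKM in control livers and at 7769, 8355 and 7023 FPKM in lipophagy livers. Control liver 1 was the lowest of the 6 for both. The log2 changes were 0.086 for Fth1 (SE 0.12, 95% interval -0.19 to 0.36, adjusted p = 0.714, limma) and 0.089 for Ftl1 (SE 0.13, 95% interval -0.21 to 0.39, adjusted p = 0.725, limma), and both turned negative with quantile normalization (-0.15 and -0.10) and without control liver 1 (-0.0067 and -0.0031). The ratio of Ftl1 to Fth1 was 2.97 ± 0.0491 (SD, n = 3) in control and 2.98 ± 0.227 (SD, n = 3) in lipophagy livers. Of the windows of the Ftl1 transcript 60.4% recur in 4 other annotated genes, among them Ftl1-ps1, so its level is uncertain, whereas 0.964% of those of Fth1 do.

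Slc40a1, encoding ferroportin, the only known exporter of iron from cells, was lower in each lipophagy liver. It was at 37.2, 31.6 and 31.1 FPKM in control livers and at 27.7, 30.4 and 28.4 FPKM in lipophagy livers. The groups did not overlap, but the lowest control and the highest lipophagy liver were close. The means were 33.3 ± 3.40 FPKM (SD, n = 3) and 28.8 ± 1.43 FPKM (SD, n = 3), a log2 change of -0.20 (SE 0.093, 95% interval -0.41 to 0.015, adjusted p = 0.282, limma). The log2 change was -0.12 without control liver 1, -0.13 with quality weights and -0.32 with quantile normalization. Ferroportin is made by Kupffer cells as well as hepatocytes. Of 11 macrophage markers 10 were tested, 4 higher and 6 lower, with 0 called, summing to 546 to 726 FPKM in control and 541 to 669 FPKM in lipophagy livers. Most of this sum was Lyz2 in every liver. Cd68 (-0.38, adjusted p = 0.186, limma) and Csf1r (-0.28, adjusted p = 0.151, limma) were lower in all 3 lipophagy livers, as Slc40a1 was, and Vsig4 (0.40, adjusted p = 0.161, limma) was higher in all 3. Of the other markers in this list Clec4f was at 0.17, Marco at 0.13, Adgre1 at 0.054 and Cd5l at -0.094. Lyz2 was at -0.15, Gpnmb at -0.21 and Trem2 at -0.24, and Timd4 was under the filter. The part of these markers' cells in the Slc40a1 values was not tested.

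By level, the mean over the 6 livers put Ftl1 first (7491 FPKM), then Trf (6537), Fth1 (2518), Hamp (1226), Hamp2 (45.2), Slc40a1 (31.1), Id1 (12.2), Tfrc (4.24), Smad7 (1.74) and Bmp6 (0.396). FPKM is scaled by transcript length, but the places of Ftl1 and Trf are uncertain, since most of their transcript windows recur in other annotated genes. Ftl1 and Trf overlapped between livers, as did Hamp2 and Slc40a1, and the other neighbours did not. The order of Hamp2 and Slc40a1 turned between groups, with means of 25.5 and 33.3 FPKM in control livers and of 64.9 and 28.8 FPKM in lipophagy livers. Among lipophagy livers the spread was greatest for Id1 and least for Slc40a1. The highest lipophagy liver was 4.04 times the lowest for Id1, 2.65 times for Smad7 and 2.61 times for Hamp, against 1.17 times for Fth1 and 1.10 times for Slc40a1.

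The wider iron pathway was described with lists written from general knowledge. Of 109 genes 96 were tested, 56 higher and 40 lower, beside 6259 higher and 5234 lower of all tested genes. The median log2 change was 0.055, and 0 were called (limma). At an unadjusted p below 0.05 there were 23, 24.0% beside 19.5% of all tested genes. Between groups 33 did not overlap, 34.4% beside 26.2% of all tested genes. Among 13 tested genes of iron uptake 4 were higher and 9 lower, with a median of -0.12. Lcn2, which encodes the siderophore-binding lipocalin 2, an acute phase protein, was lowest, at 133, 169 and 210 FPKM in control livers and at 78.2, 93.6 and 122 FPKM in lipophagy livers. All lipophagy livers lay below the controls (log2 change -0.79, SE 0.20, adjusted p = 0.139, limma). Hp, encoding the hemoglobin scavenger haptoglobin, was also lower in all 3 (-0.36, SE 0.13, adjusted p = 0.204, limma), and Slc39a14, the transporter of iron that is not bound to transferrin, was at 0.059 (adjusted p = 0.845, limma).

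All 5 tested genes of iron storage were higher by group means, with a median of 0.14 that was 0.016 with quantile normalization and 0 called. Ncoa4, the receptor that delivers ferritin to autophagosomes, was highest in this list, at 30.7, 28.8 and 29.1 FPKM in control livers and at 33.2, 31.4 and 45.0 FPKM in lipophagy livers. The groups did not overlap, and the largest part of the difference came from lipophagy liver 3 (log2 change 0.28, SE 0.13, adjusted p = 0.284, limma). Of the 5 tested genes of iron and heme export 4 were lower, Mfsd7c, now called Flvcr2, the most (-0.53, SE 0.12, adjusted p = 0.134, limma). The RNAs of the iron regulatory proteins overlapped between groups, with log2 changes for Aco1 at 0.039 (adjusted p = 0.801, limma) and Ireb2 at -0.13 (adjusted p = 0.525, limma).

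Of 5 genes of heme breakdown 3 were higher and 2 lower, 0 were called, and 4 did not overlap between groups, beside 26.2% of all tested genes. The median of 0.017 had no stable sign, at -0.044 to 0.10 with single livers left out and -0.17 with quantile normalization. Hmox1, the inducible heme oxygenase that frees iron from heme, was at 24.6, 22.1 and 21.7 FPKM in control livers and at 16.3, 16.2 and 17.8 FPKM in lipophagy livers. Hmox2, the constitutive form, was at 31.1, 33.3 and 35.5 FPKM in control livers and at 40.8, 41.8 and 40.7 FPKM in lipophagy livers. Neither gene overlapped between groups, and they lay on opposite sides. The log2 changes were -0.42 for Hmox1 (SE 0.083, adjusted p = 0.124, limma) and 0.30 for Hmox2 (SE 0.078, adjusted p = 0.145, limma).

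Of 9 genes of heme synthesis 8 were higher, with a median of 0.15 (0.025 with quantile normalization) and 0 called. Alas1, the rate-limiting enzyme of the liver, was lowest (-0.016, SE 0.37, adjusted p = 0.984, limma), ranging from 60.4 to 168 FPKM in control livers alone. Of 18 genes of mitochondrial iron and iron-sulfur clusters 16 were higher, 8 of them in all 3 lipophagy livers, beside 15.4% of all tested genes. The median was 0.17 (0.084 with quantile normalization), with 0 called. Lyrm4, a partner of the sulfur donor Nfs1, was highest (0.31, SE 0.10, adjusted p = 0.184, limma) and Slc25a37, the mitochondrial iron importer, lowest (-0.17, SE 0.13, adjusted p = 0.506, limma).

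**Figure D4:**
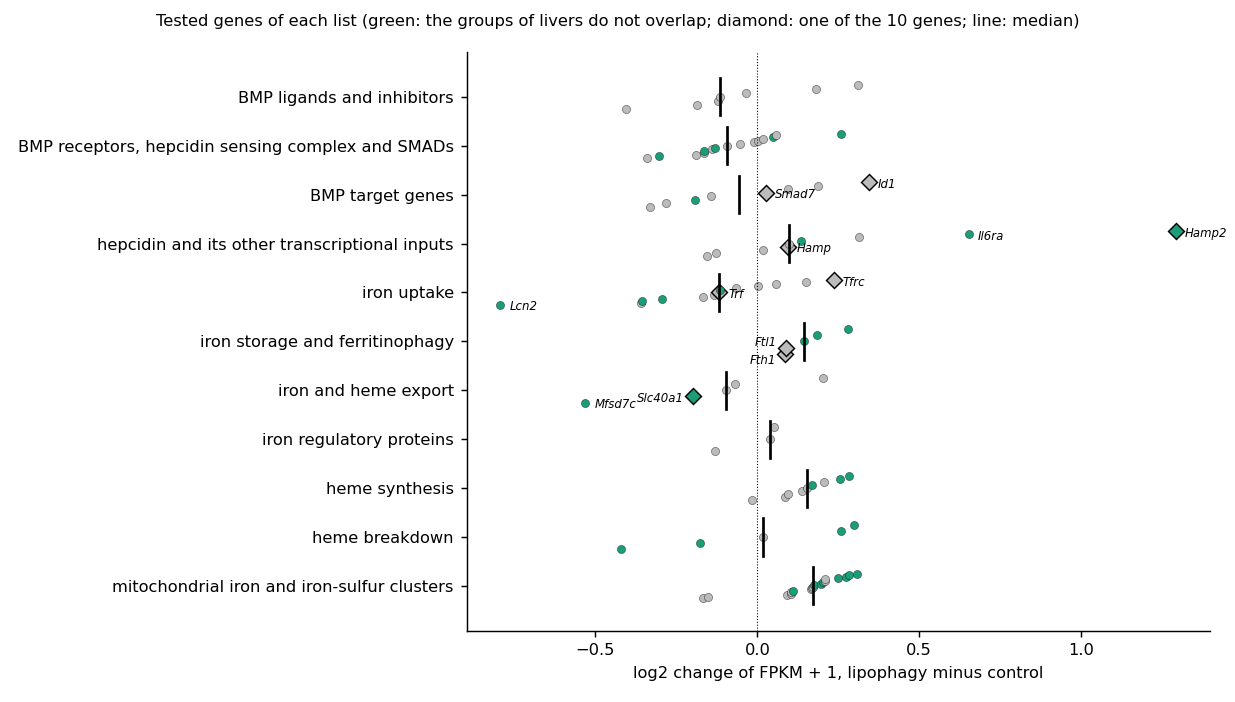
Log2 change of FPKM + 1 (horizontal axis, lipophagy minus control) of each tested gene, by list (vertical axis), with the median of each list as a line, genes whose groups do not overlap in green and the 10 genes of the report as diamonds. Hamp2 lies farthest to the right and Lcn2 farthest to the left, and most genes of heme synthesis and iron-sulfur clusters lie to the right of 0.

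The livers held hepatocyte RNA as labelled. The 11 hepatocyte markers summed to 60920 to 68250 FPKM in control livers and to 73280 to 96680 FPKM in lipophagy livers, with 9 higher, 2 lower, 0 called and a median of 0.24. Alb gave most of that sum. Bile duct markers were lower by group means in all 5 genes, with sums of 137 to 247 FPKM in control and 92.0 to 196 FPKM in lipophagy livers. Stellate cell markers summed to 148 to 177 and 124 to 179 FPKM. Most of the bile duct sum was Spp1 and most of the stellate cell sum was Dcn in every liver. Hemoglobin genes were uneven between livers. They summed to 31.1 to 65.2 FPKM in control livers, to 75.5 and 43.3 FPKM in lipophagy livers 1 and 3, and to 389 FPKM in lipophagy liver 2, the liver with the lowest Hamp. Of the red cell markers Slc4a1 was below 0.1 FPKM in every liver. The part of hepatocyte, bile duct or blood RNA in the values of the 10 genes was not tested. Without lipophagy liver 2 the log2 change of Hamp was 0.51 and that of Hamp2 1.60, neither of them called.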

How the data were processed

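Poly(A) RNA of 6 livers (3 control, 3 lipophagy, grouped by their titles) had been sequenced in paired-end mode with reads of 100 bp. FPKM values were made by the authors for each gene and liver, per the labels with TopHat2 2.0.13, Bowtie2 2.2.3, SAMtools 0.1.19 and Cufflinks 2.2.1 on mm10. The annotation is not given in the sources used here. FPKM are not counts, so log2(FPKM + 1) was tested with limma 3.58.1 in R 4.3.3 (linear model, intensity trend, no covariate, two-sided), on 11493 genes averaging 0.5 FPKM or more. P-values were adjusted by Benjamini-Hochberg over these genes, with a threshold of 0.05. Fold changes on this scale understate those of low genes. Bmp6, under the filter, was compared with an exact permutation test. The procedure was tested on simulated data.

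Depth was estimated as the number of fragments that best made low FPKM times transcript length (GENCODE M21, less 150 bases) whole. Such numbers cover counting error only. Of the 6 listed symbols that were absent from the table, 5 were matched through RefSeq synonyms, and Hbb-bt was not matched. Promoters and gene positions came from RefSeq (GRCm38.p6). Python 3.11.15, pandas 2.3.3 and Biopython 1.88 were used.

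The 10 genes and all lists were chosen with earlier results of these data known. Named genes were the 10, the highest and lowest of each list, pathway genes fixed by name, and the 3 genes nearest to Hamp and to Id1, and some genes that this rule names are not reported here. Genes named for groups that do not overlap, and the markers named, were chosen after their values were seen. Alternatives were other pseudocounts, filters and scalings, no trend, a replicate block, quality weights and each liver left out.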

Additional observations from a re-analysis of the deposited data

How the results depend on the processing

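The count of genes called over the whole table was 3. It was 1 with no filter, 43 with the replicate number as a block, 39 with quality weights, 1 to 11 with each liver left out in turn (1 without control liver 3, 11 without lipophagy liver 3, 7 without control liver 2 and 5 without lipophagy liver 2), and 2243 without adjustment. Whether the replicate numbers pair the livers is not known, since the labels do not say so. The deviations of same-numbered livers had correlations of 0.25, 0.234 and -0.0565, and with 3 livers per group these cannot settle it. With the block Hamp2 passed (log2 change 1.29, SE 0.13, adjusted p = 0.0139, limma), and under its other alternatives its adjusted p was 0.0904 to 0.355. None of the other 9 genes passed under any alternative run. Signs turned with quantile normalization for Hamp (-0.093), Fth1 (-0.15) and Ftl1 (-0.10), with quality weights for Hamp (-0.082) and Smad7 (-0.090), and with a pseudocount of 0.1 for Smad7 (-0.0022). Leaving out single livers gave log2 changes of -0.18 to 0.51 for Hamp, -0.18 to 0.75 for Id1, -0.28 to 0.18 for Smad7, 0.14 to 0.35 for Tfrc, -0.18 to -0.038 for Trf, -0.18 to -0.039 for Bmp6, -0.245 to -0.12 for Slc40a1, -0.0067 to 0.15 for Fth1 and -0.0031 to 0.15 for Ftl1. Hamp summed with Hamp2 as a single gene, an alternative chosen after seeing the data, differed by 0.13 on the log2 scale (adjusted p = 0.860, limma). The causes were not tested. With quantile normalization genes with an unadjusted p below 0.05 were 743 higher and 901 lower, against 1327 and 916 in the reported fit. Bmp6 rests on an estimated 20 to 48 fragments per liver, and the part of depth in its spread was not tested.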

Other observations

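Alas2, the form of aminolevulinate synthase best known from red cell precursors, was above each listed hemoglobin gene in 5 of the 6 livers, the exception being lipophagy liver 2, where Hba-a1 was at 141 and Hbb-b1 at 191 FPKM. It was at 73.8, 77.8 and 70.4 FPKM in control livers and at 93.8, 94.0 and 78.7 FPKM in lipophagy livers, while Slc4a1 was at most 0.0787 FPKM. Lipophagy livers 1 and 2, the highest for Alas2, were also the highest for the sum of hemoglobin genes, at 75.5 and 389 FPKM, and the part of red cell RNA in the Alas2 values was not tested. All lipophagy livers lay above the controls for Alas2 (log2 change 0.26, SE 0.095, adjusted p = 0.213, limma).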
